A study of Homo sapiens with 8 samples.

Results

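Interleukin-1 (IL-1) is a cytokine system of epithelia and myeloid cells, and its genes were followed here across MCF10A and DCIS.COM cells with and without overexpression of *MALINC1*, a long non-coding RNA. Genes were taken by symbol from a list of 9 ligands and receptors of the family, and 6 of them had a row among the 13842 genes of the expression table: *IL1A*, *IL1B*, *IL1RN*, *IL1R1*, *IL1R2* and *IL1RAP*. The remaining 3, *IL33*, *IL36G* and *IL1RL1*, were not analysed here. RNA-seq had been made from 8 libraries in 4 groups of 2. MCF10A is an immortalized line of non-tumorigenic breast epithelium, and DCIS.COM is a breast line that models ductal carcinoma in situ, the stage before invasion. Cells of each line were stably transduced with the lentiviral pLOC vector, either empty (pLOC-empty) or carrying the full-length *MALINC1* transcript (pLOC-*MALINC1*), and were kept under blasticidin, so that all groups had the vector and the selection in common. The medium of MCF10A held epidermal growth factor, hydrocortisone, insulin and cholera toxin beside horse serum, whereas the medium given for DCIS.COM held horse serum, so that the line and its medium cannot be told apart. The labels do not say whether replicates came from separate cultures, and p-values therefore measure the spread between these libraries, which may be technical.

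The agonists IL-1α, from *IL1A*, and IL-1β, from *IL1B*, bind the receptor encoded by *IL1R1*, which recruits the accessory chain encoded by *IL1RAP* and signals through MyD88 and IRAK kinases to NF-κB and AP-1. The system is held in check at the receptor by the antagonist from *IL1RN*, which occupies IL1R1 without recruiting the accessory chain, and by *IL1R2*, a decoy receptor that binds ligand and does not signal. In keratinocytes IL-1α is kept in the cell as an alarmin, while IL-1β needs cleavage, classically by caspase-1 in the inflammasome, before it is active.

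The ligand genes lie together on chromosome 2. In GRCh37, the build of the deposited data, *IL1A* spans chr2:113531502-113542070 and *IL1B* chr2:113587328-113594393, both on the minus strand, and *IL1RN* spans chr2:113856892-113891593 on the plus strand. The receptor genes *IL1R2* (chr2:102608422-102645006) and *IL1R1* (chr2:102681004-102796334) form another cluster on the same chromosome, and *IL1RAP* lies at chr3:190231840-190377539, all on the plus strand. Of these genes only *IL1R1* shares annotated exon sequence with another gene, 11 bases with the antisense *IL1R1-AS1*, and the strand setting of the counting is not given in the sources used here.

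The 250 bases before the most upstream RefSeq start (GRCh38.p14) are shown for the 4 genes that were DEGs in a vector contrast below (*IL1A*, *IL1B*, *IL1R2* and *IL1RAP*) and for the antagonist gene *IL1RN*, which lies in the cluster of the agonists. Capitals mark matches, on either strand, to the AP-1 site (TGACTCA, which reads TGAGTCA on the other strand) or to the ten-letter NF-κB consensus, the factors that IL-1 signaling activates. The windows are chr2:112784494-112784743 and chr2:112836780-112837029 on the minus strand, and chr2:113117721-113117970, chr2:101991710-101991959 and chr3:190513835-190514084 on the plus strand, each written 5′ to 3′.
IL1A: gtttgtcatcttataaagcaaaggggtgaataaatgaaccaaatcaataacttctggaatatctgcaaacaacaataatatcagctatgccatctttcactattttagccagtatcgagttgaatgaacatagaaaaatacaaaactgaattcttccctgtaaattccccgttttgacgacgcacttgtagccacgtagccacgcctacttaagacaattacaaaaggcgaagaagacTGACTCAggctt
IL1B: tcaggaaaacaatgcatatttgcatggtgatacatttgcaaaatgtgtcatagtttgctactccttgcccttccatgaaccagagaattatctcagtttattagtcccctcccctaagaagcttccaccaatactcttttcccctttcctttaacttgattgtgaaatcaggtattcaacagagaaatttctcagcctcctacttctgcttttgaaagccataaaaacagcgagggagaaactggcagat
IL1RN: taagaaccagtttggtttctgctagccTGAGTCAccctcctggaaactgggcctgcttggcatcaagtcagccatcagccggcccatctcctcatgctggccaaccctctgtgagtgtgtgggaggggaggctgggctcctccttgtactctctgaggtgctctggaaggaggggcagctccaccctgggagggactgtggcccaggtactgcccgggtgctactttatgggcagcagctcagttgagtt
IL1R2: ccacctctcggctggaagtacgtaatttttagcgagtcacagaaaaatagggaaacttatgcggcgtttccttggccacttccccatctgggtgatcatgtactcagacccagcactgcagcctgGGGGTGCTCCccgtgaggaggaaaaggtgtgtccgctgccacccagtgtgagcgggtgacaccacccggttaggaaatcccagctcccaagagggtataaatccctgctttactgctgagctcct
IL1RAP: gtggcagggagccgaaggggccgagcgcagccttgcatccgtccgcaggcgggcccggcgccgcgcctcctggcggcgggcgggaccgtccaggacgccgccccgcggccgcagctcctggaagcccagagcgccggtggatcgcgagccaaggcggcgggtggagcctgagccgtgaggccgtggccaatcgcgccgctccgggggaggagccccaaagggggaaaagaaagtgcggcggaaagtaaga
The AP-1 site stood 12 bases before the start of *IL1A* and 223 bases before that of *IL1RN*, and an NF-κB match stood 125 bases before that of *IL1R2*. The windows of *IL1B* and *IL1RAP* held neither, nor did that of *IL1R1*, which is not shown. The matches depend on the start chosen. Before the downstream start of *IL1A*, the same AP-1 site stood at 105 bases and another at 55 bases. The windows before the downstream starts of *IL1RN* and *IL1R2* held no match. Of 35116 RefSeq windows of this length, 4.20% held the AP-1 site and 9.96% the NF-κB match, so that the latter is common. A match is a description of letters and was not tested as a binding site.

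The libraries held 20604377 to 37550457 reads on the genes of the table. Values are CPM (reads scaled to the library size), with the prior count in the deposited log2 values removed, and 1 read was worth 0.0279 to 0.0477 CPM. *MALINC1* had 29 and 34 reads with pLOC-empty and 475 and 311 reads with pLOC-*MALINC1* in MCF10A, and 29 and 24 against 840 and 648 reads in DCIS.COM, as the labels have it. All 11 epithelial markers were measured, whereas 3 of 12 leukocyte markers had a row and summed to at most 38.6 CPM. *PTPRC*, *LYZ* and *TYROBP* were among the leukocyte markers with no row. The summed leukocyte markers (*CD14*, *CSF1R* and *CD68*) had 37.6 to 38.6 CPM with pLOC-empty and 24.4 to 25.9 CPM with pLOC-*MALINC1* in MCF10A, and 4.71 to 4.87 against 8.22 to 8.42 CPM in DCIS.COM. Of 5 endothelial markers *PECAM1* had a row, with 6.06 and 7.21 CPM in DCIS.COM with pLOC-empty and 0.0874 and 0.177 CPM with pLOC-*MALINC1*. Of 8 fibroblast markers *COL1A1* had a row, with 15.1 and 15.9 CPM against 7.38 and 6.61 CPM in MCF10A, and of 4 mast cell markers none had one. The part of these markers in the results was not tested. Log2 fold changes were fitted with limma and are given with their standard error, and a differentially expressed gene (DEG) is one with a Benjamini-Hochberg adjusted p below 0.01 over all genes and a change over 2-fold. In RNA from whole plates, fewer cells expressing a gene and less RNA per cell cannot be told apart.

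In DCIS.COM both agonists were downregulated with pLOC-*MALINC1*, whereas in MCF10A the genes of the decoy receptor, *IL1R2*, and of the accessory chain, *IL1RAP*, were upregulated. *IL1A* and *IL1B* fell 4.31-fold and 5.68-fold in DCIS.COM, and *IL1R2* and *IL1RAP* rose by 2.43 and 1.15 on the log2 scale in MCF10A. In MCF10A 2 of the 6 genes were thus DEGs with higher expression, against 2.99% of all genes that were higher and 2.51% that were lower. In DCIS.COM 2 of the 6 were DEGs with lower expression, against 3.08% of all genes that were lower and 1.44% that were higher. No gene among the 6 was a DEG in both lines. The share of all genes that were DEGs in both lines is not given here, so that nothing is drawn from this.

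**Figure D1:**
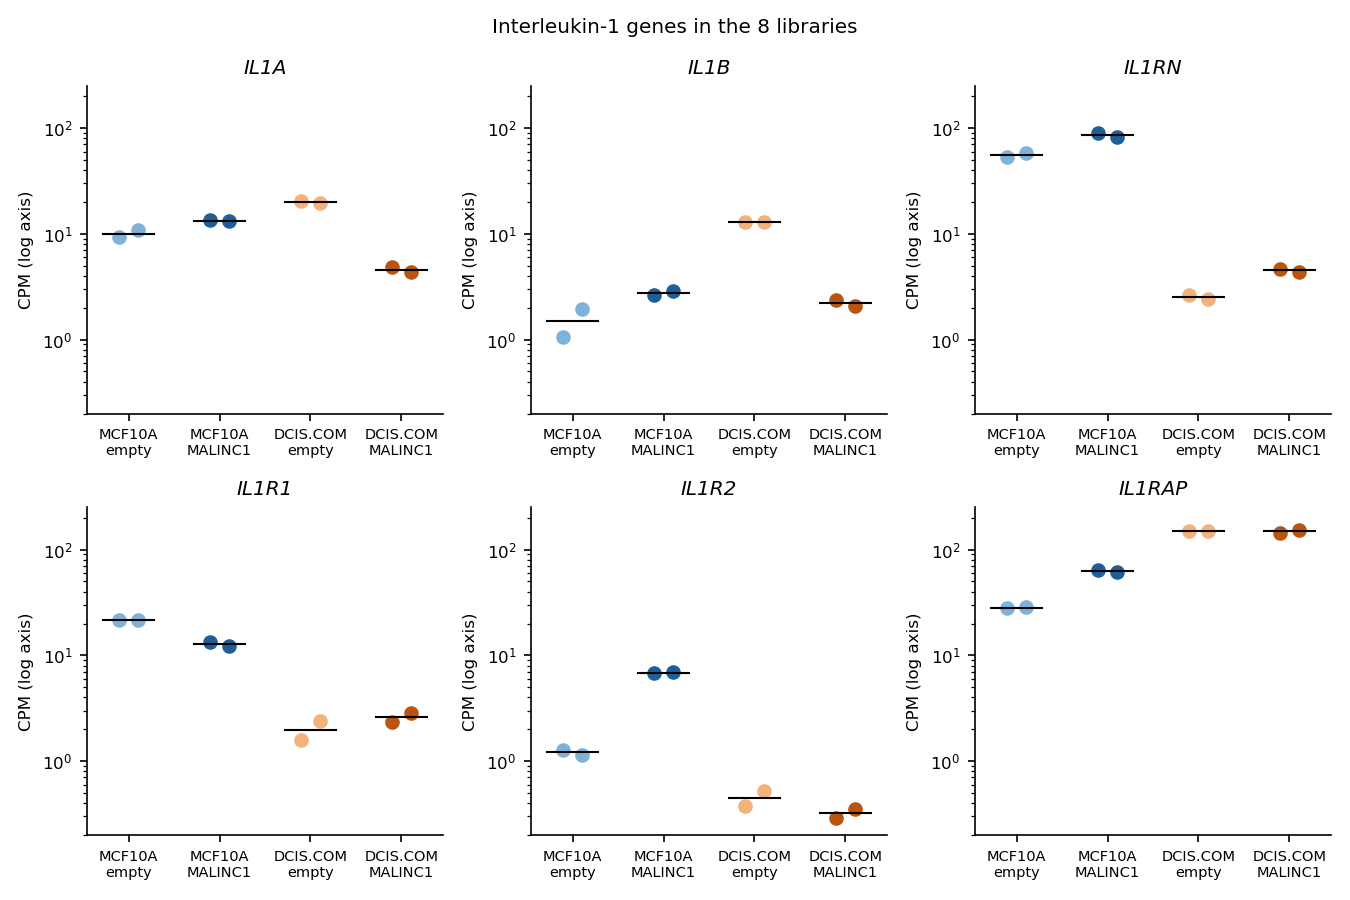
CPM on a log axis for the 6 interleukin-1 genes, with a point for each of the 8 libraries and a line at the mean of the 2 libraries of a group. *IL1A* and *IL1B* are low in DCIS.COM with pLOC-*MALINC1* (4.35 to 4.84 and 2.07 to 2.39 CPM), *IL1RN* and *IL1R1* are high in MCF10A with either vector, and *IL1RAP* is near 149 CPM in all DCIS.COM libraries.

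*IL1A*, the alarmin ligand, had 20.6 and 19.4 CPM in DCIS.COM with pLOC-empty and 4.84 and 4.35 CPM with pLOC-*MALINC1*. The groups were far apart, with a log2 fold change of -2.11 ± 0.10 (adjusted p = 7.87e-09). In MCF10A it had 9.28 and 10.8 CPM with pLOC-empty and 13.4 and 13.1 CPM with pLOC-*MALINC1*. The change there was 1.32-fold and no DEG (log2 fold change 0.41 ± 0.10, adjusted p = 0.00462). Over the 4 groups *IL1A* therefore ran from DCIS.COM pLOC-empty, the highest, through MCF10A pLOC-*MALINC1* and MCF10A pLOC-empty to DCIS.COM pLOC-*MALINC1*.

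*IL1B*, the ligand that needs cleavage, had 12.9 and 13.0 CPM in DCIS.COM with pLOC-empty and 2.39 and 2.07 CPM with pLOC-*MALINC1*. Here too the groups were far apart (log2 fold change -2.50 ± 0.22, adjusted p = 1.96e-06). In MCF10A it was scarce, with 1.07 and 1.95 CPM (31 and 44 reads) with pLOC-empty and 2.62 and 2.87 CPM (94 and 76 reads) with pLOC-*MALINC1*. The log2 fold change there was 0.89 ± 0.22 (adjusted p = 0.00489), below the 2-fold needed for a DEG. It depended on the pLOC-empty libraries: without MCF10A pLOC-empty replicate 2 it was 1.30 and a DEG, and without replicate 1 of that group it was 0.48. The pLOC-*MALINC1* libraries of the 2 lines lay next to each other in the order of levels and their difference did not pass the test (log2 difference -0.29 ± 0.22, adjusted p = 0.235).

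*IL1RN*, the receptor antagonist, moved the other way from the agonists in DCIS.COM. It had 2.66 and 2.43 CPM with pLOC-empty and 4.63 and 4.37 CPM with pLOC-*MALINC1* in that line, and 53.6 and 57.9 against 90.3 and 82.7 CPM in MCF10A. Its mean was higher with pLOC-*MALINC1* in both lines. For MCF10A the log2 fold change was 0.63 ± 0.08 (1.55-fold, adjusted p = 4.02e-05). For DCIS.COM it was 0.81 ± 0.08 (1.75-fold, adjusted p = 6.53e-06), so that *IL1RN* was a DEG in neither. The effects in the lines differed by 0.17 (95% interval -0.08 to 0.42, adjusted p = 0.235).

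*IL1R2*, the decoy receptor, had 1.28 and 1.15 CPM in MCF10A with pLOC-empty and 6.80 and 6.91 CPM with pLOC-*MALINC1*. This was the steepest vector effect of the family in that line, with a log2 fold change of 2.43 ± 0.22 (adjusted p = 1.95e-06). With 1 CPM added before the logarithm it was 1.83 and still a DEG. In DCIS.COM the gene was close to the limit of detection, with 8 and 11 reads with pLOC-empty and 10 and 12 reads with pLOC-*MALINC1*, or 0.291 to 0.525 CPM. No difference was detectable there at this depth (log2 fold change -0.39, 95% interval -0.87 to 0.09, adjusted p = 0.170). It was -0.60 without DCIS.COM pLOC-empty replicate 1 and -0.18 without replicate 2 of that group.

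*IL1R1*, the signaling receptor, had 21.6 and 21.5 CPM in MCF10A with pLOC-empty and 13.3 and 12.2 CPM with pLOC-*MALINC1*. The decrease was 1.69-fold (log2 fold change -0.76 ± 0.17, adjusted p = 0.00255) and no DEG. In DCIS.COM it had 1.59 and 2.39 CPM with pLOC-empty and 2.33 and 2.87 CPM with pLOC-*MALINC1*. These groups overlapped, and the difference did not pass the test (log2 fold change 0.40 ± 0.17, adjusted p = 0.0747). The value moved with single libraries, to 0.11 without DCIS.COM pLOC-empty replicate 1 (adjusted p = 0.576) and to 0.68 without replicate 2 of that group (adjusted p = 0.00573), and to 0.25 without DCIS.COM pLOC-*MALINC1* replicate 2. It was under 2-fold with any library left out.

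*IL1RAP*, the accessory chain shared by the receptors for IL-1, IL-33 and IL-36, had 27.9 and 28.5 CPM in MCF10A with pLOC-empty and 63.6 and 61.4 CPM with pLOC-*MALINC1*. Its replicates were close and the log2 fold change was 1.15 ± 0.04 (adjusted p = 4.29e-10). In DCIS.COM the libraries held 149 and 149 CPM with pLOC-empty and 145 and 152 CPM with pLOC-*MALINC1*. The log2 fold change was -0.01 with a 95% interval of -0.09 to 0.08 (adjusted p = 0.900), the narrowest limit on a change among the 6 genes.

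The vector effects of the lines were then set against each other in the same fit. The effect in DCIS.COM minus the effect in MCF10A was -2.52 ± 0.14 for *IL1A* (adjusted p = 2.77e-08), -3.40 ± 0.31 for *IL1B* (2.65e-06), -2.82 ± 0.31 for *IL1R2* (1.21e-05) and -1.15 ± 0.06 for *IL1RAP* (7.13e-09), all log2. For *IL1R1* the difference was positive, 1.15 ± 0.24 (adjusted p = 0.00170). By the thresholds for DEGs, 4 of 6 genes had a lower and 1 a higher effect in DCIS.COM, against 5.22% and 3.98% of all genes. The call for *IL1R1* was lost with 1 CPM added (0.99), without the mean trend in the variance prior, and when a single library was left out: 1.09 without MCF10A pLOC-*MALINC1* replicate 2, 0.87 without DCIS.COM pLOC-empty replicate 1 and 1.01 without DCIS.COM pLOC-*MALINC1* replicate 2. The other calls held when any library was left out.

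**Figure D2:**
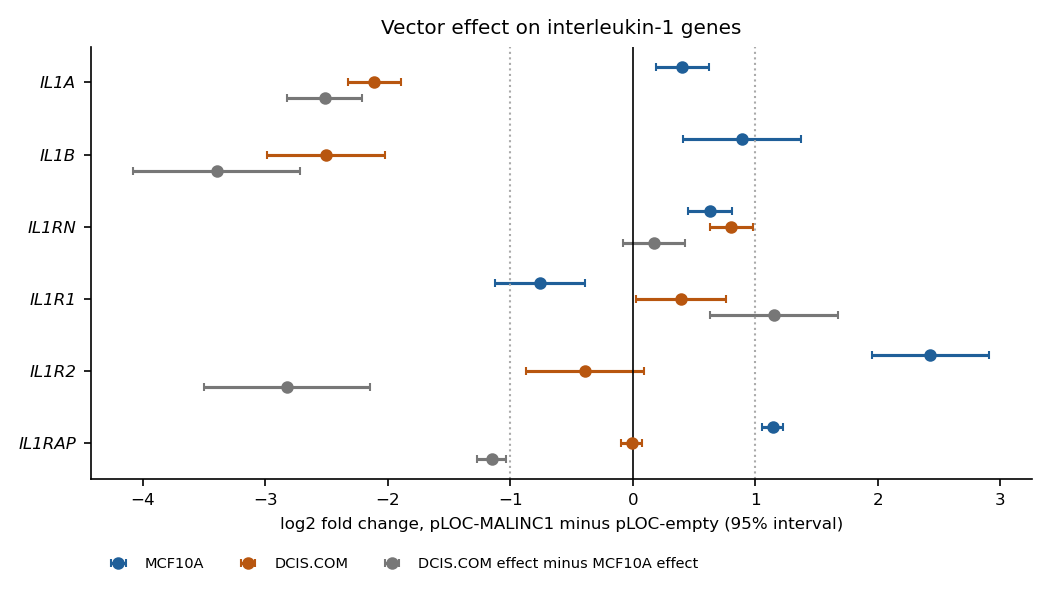
Log2 fold change of pLOC-*MALINC1* over pLOC-empty with its 95% interval from limma for MCF10A (blue) and DCIS.COM (orange), and the difference between the lines (grey), with dotted lines at 2-fold. The intervals of *IL1A* and *IL1B* lie on opposite sides of 0 in the 2 lines, whereas those of *IL1RN* lie together on the positive side.

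Ratios of reads within a library do not depend on how libraries are scaled to each other. For each read of the agonists *IL1A* and *IL1B* combined, MCF10A held 5.18 and 4.54 reads of the antagonist *IL1RN* with pLOC-empty and 5.63 and 5.16 with pLOC-*MALINC1*. DCIS.COM held 0.0794 and 0.0750 with pLOC-empty and 0.641 and 0.682 with pLOC-*MALINC1*, an 8.57-fold higher ratio with the *MALINC1* vector. Agonist reads thus exceeded antagonist reads in all 4 DCIS.COM libraries and in none of the 4 of MCF10A. For the signaling receptor over the decoy, *IL1R1* over *IL1R2*, MCF10A had 16.9 and 18.7 with pLOC-empty and 1.96 and 1.76 with pLOC-*MALINC1*, 9.58-fold lower. DCIS.COM had 4.25 and 4.55 against 8.00 and 8.08, over 8 to 12 reads of *IL1R2*. With 2 libraries against 2, the smallest two-sided p of an exact permutation test is 0.333, which these ratios gave except the antagonist ratio in MCF10A (exact p = 0.667). The ratios were chosen after the levels had been seen, and they compare reads, not molecules, as the transcripts differ in length.

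**Figure D3:**
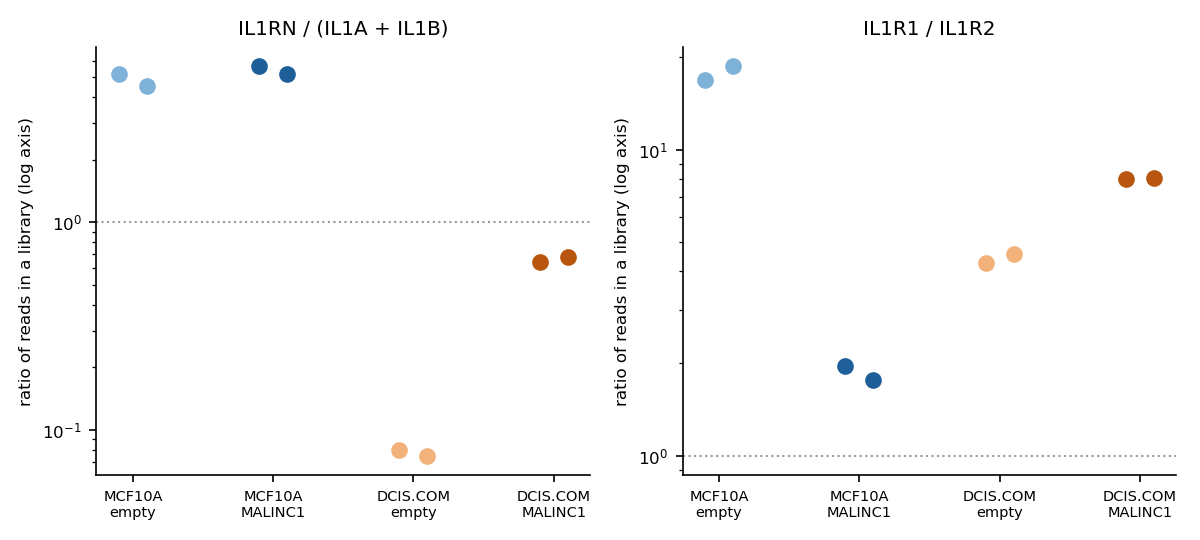
Ratio of reads within each library on a log axis, antagonist over agonists (left) and signaling receptor over decoy receptor (right), with 1 point per library and a dotted line at 1. The antagonist ratio is 0.0750 to 0.0794 in DCIS.COM with pLOC-empty against 0.641 to 0.682 with pLOC-*MALINC1*, and the receptor ratio is 16.9 to 18.7 in MCF10A with pLOC-empty against 1.76 to 1.96.

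The lines, each in its own medium, differed in most genes of the system. With pLOC-empty, *IL1B* was 8.58-fold and *IL1RAP* 5.28-fold higher in DCIS.COM than in MCF10A (log2 differences 3.10 ± 0.22 and 2.40 ± 0.04). *IL1RN*, *IL1R1* and *IL1R2* were 21.3-fold, 10.7-fold and 2.49-fold lower (log2 differences -4.41 ± 0.08, -3.42 ± 0.17 and -1.32 ± 0.22). These 2 higher and 3 lower genes stand against 15.6% of all genes that were higher and 13.0% that were lower. *IL1A* was 1.99-fold higher (adjusted p = 1.04e-06), just under the limit, and became a DEG without MCF10A pLOC-empty replicate 2 (1.10) or DCIS.COM pLOC-empty replicate 2 (1.04). The call for *IL1R2* was lost with 0.5 or 1 CPM added before the logarithm (-0.86 and -0.61).

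With pLOC-*MALINC1* the higher levels of the agonist genes in DCIS.COM were no longer seen. *IL1A* was 2.87-fold lower in DCIS.COM (log2 difference -1.52 ± 0.10, adjusted p = 1.75e-08). For *IL1B* the difference did not pass the test (log2 difference -0.29, 95% interval -0.78 to 0.19). *IL1RN*, *IL1R1* and *IL1R2* were again lower, by log2 differences of -4.24 ± 0.08, -2.27 ± 0.17 and -4.14 ± 0.22, and *IL1RAP* was higher by 1.25 ± 0.04. The value for *IL1R2* rested on its few reads in DCIS.COM and was -2.57 with 1 CPM added. Over all genes, 14.4% were higher and 12.2% lower in this comparison.

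Divided by the length of all annotated exons of a gene, mean CPM per kb can be set side by side between genes. In MCF10A with pLOC-empty the order was *IL1RN* (14.9 CPM per kb), *IL1A* (4.98), *IL1R1* (3.03), *IL1RAP* (2.52), *IL1B* (0.501) and *IL1R2* (0.410). In DCIS.COM with pLOC-empty it was *IL1RAP* (13.3 CPM per kb), *IL1A* (9.93), *IL1B* (4.30), *IL1RN* (0.682), *IL1R1* (0.279) and *IL1R2* (0.152). The antagonist led in one line and the accessory chain in the other, and *IL1A* was above *IL1B* in both. With pLOC-*MALINC1* the leading gene of each line was again the same, *IL1RN* at 23.2 and *IL1RAP* at 13.2 CPM per kb. In MCF10A *IL1RAP* (5.58) and *IL1R2* (2.32) passed *IL1R1* (1.79), and *IL1R2* also passed *IL1B* (0.912). In DCIS.COM *IL1RN* passed *IL1B* (1.21 against 0.741). Exon lengths include all annotated isoforms, so that genes with long alternative ends, such as *IL1RAP*, are set too low.

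Genes around the IL-1 clusters were examined next, as 13 of 18 coding genes within 500 kb of *IL1A* had a row. The 13 include *IL1A* itself and the members *IL1B* and *IL1RN*. In DCIS.COM the members *IL1A* and *IL1B*, whose start lies 52.3 kb away, were the DEGs already given above. The window was set around *IL1A*, so that a count with these members is no separate result. Outside the 6 members 1 gene was a DEG there, *PAX8*, a transcription factor gene 494 kb away. It was lower, at 0.494 and 0.175 CPM (log2 fold change -1.26 ± 0.34, adjusted p = 0.00857). In DCIS.COM 3.08% of all genes were lower and 1.44% higher, and 1 gene is too few to set apart from these shares. *IL1RN*, 315 kb away, had the higher values with pLOC-*MALINC1* given above. Between *IL1B* and *IL1RN*, *IL36RN*, an antagonist of the IL-36 receptor, had 0.754 and 1.22 CPM (log2 fold change 0.64 ± 0.20, adjusted p = 0.0172). *CKAP2L*, 19.8 kb from *IL1A* on the other side, had log2 fold changes of -0.40 ± 0.05 in DCIS.COM and -0.36 ± 0.05 in MCF10A. In that direction *SLC20A1*, a phosphate transporter 139 kb away, was a DEG in MCF10A, where it rose from 110 to 298 CPM, and in DCIS.COM it was lower with pLOC-*MALINC1*, at 418 and 236 CPM, short of a DEG (log2 fold change -0.82 ± 0.04, adjusted p = 1.54e-08). *POLR1B*, an RNA polymerase I subunit 243 kb away, also rose in MCF10A (log2 fold change 1.03 ± 0.05). Around *IL1R1*, 6 of 9 coding genes had a row, *IL1R1* itself among them. The DEG among these was *IL1R2* in MCF10A, where 2.99% of all genes were higher. It starts 72.6 kb away and is a member already given above, so that this is no separate result. These neighbours were chosen by position after earlier results were known.

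**Figure D4:**
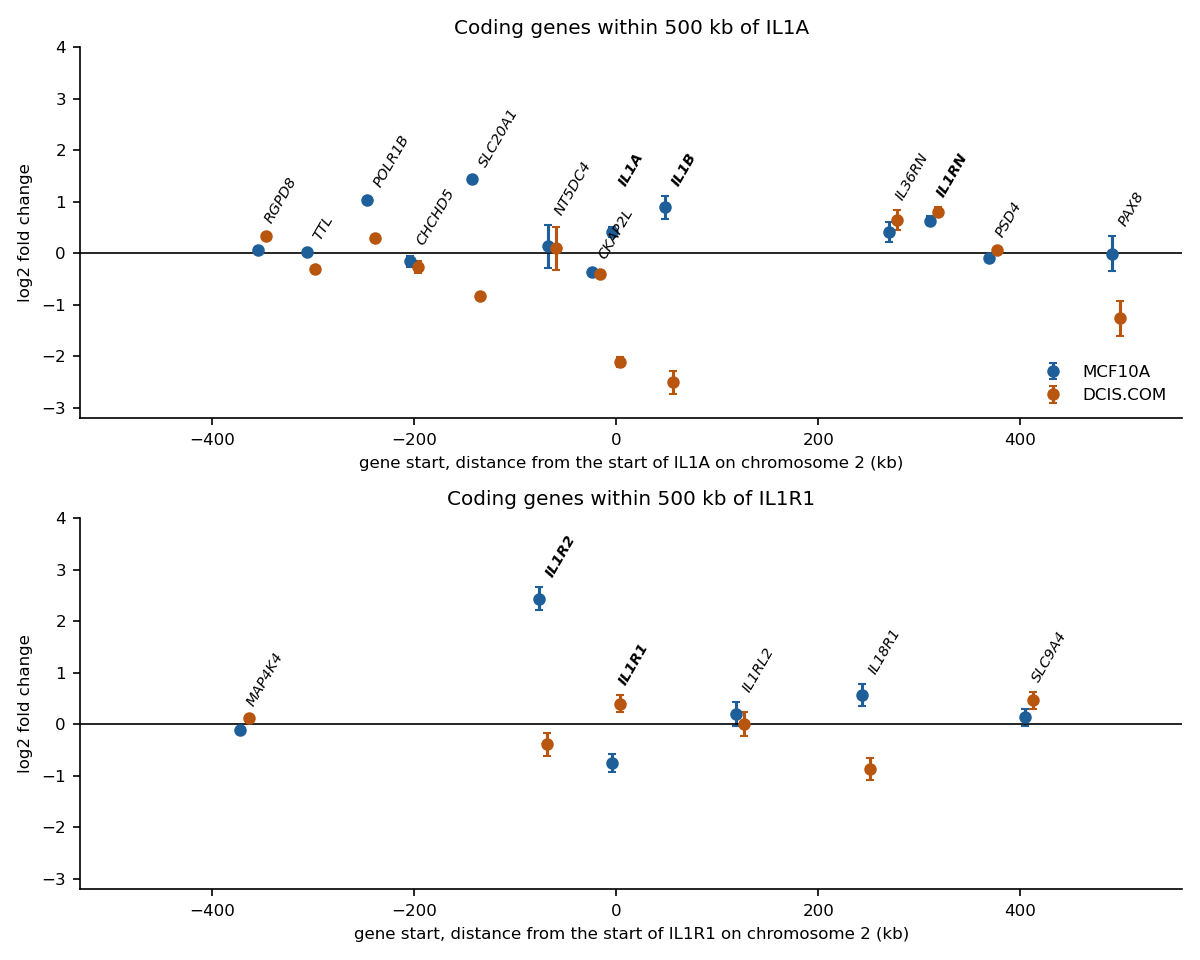
Log2 fold change of pLOC-*MALINC1* over pLOC-empty, with standard errors, for the coding genes with a row within 500 kb of *IL1A* (top) and *IL1R1* (bottom), plotted by distance between gene starts in kb. In DCIS.COM (orange) *IL1A* and the neighbouring *IL1B* lie at -2.11 and -2.50 while *IL1RN* lies at 0.81, and in MCF10A (blue) *IL1R2* lies at 2.43 beside *IL1R1* at -0.76.

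The remaining genes of the pathway were grouped by role, in lists chosen with earlier results of these data known. Of 13 other ligands, receptors and regulators of the IL-1 family, 7 had a row and 0 were DEGs in either line by limma or by limma-voom, with 1 higher and 2 lower at an unadjusted p below 0.05 in MCF10A and 2 and 2 in DCIS.COM. At that level 30.6% of all genes were higher and 27.9% lower in MCF10A, and 27.1% and 25.7% in DCIS.COM, so that these counts were near the background. *IL18*, the most abundant of them, had 159 and 141 CPM in MCF10A and 88.8 and 78.0 CPM in DCIS.COM with pLOC-empty and pLOC-*MALINC1*. *IL1RL2*, the ligand-binding chain of the IL-36 receptor, had 5.14 and 5.89 CPM in MCF10A and 0 reads in all 4 DCIS.COM libraries. Both genes were chosen for mention after their values had been seen. The median log2 fold change of the 7 genes was 0.19 in MCF10A and 0.07 in DCIS.COM, where that of all genes was close to 0.

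Of 24 genes of IL-1 receptor signaling, from MyD88 and the IRAK kinases to the IκB kinase and MAP kinases, 22 had a row. In MCF10A 0 were DEGs by limma or limma-voom, with 9 higher and 4 lower at an unadjusted p below 0.05, near the shares of all genes given above (30.6% and 27.9%). In DCIS.COM 4 were higher and 8 lower at an unadjusted p below 0.05, against 27.1% and 25.7% of all genes. By limma 1 of the 22 was lower there, against 3.08% of all genes. This was *PELI2*, a ubiquitin ligase that acts with IRAK kinases, at 1.11 and 0.454 CPM. That call was lost when any DCIS.COM library was left out (0 DEGs in each case), and the gene is named after its values were seen. The medians were 0.04 in MCF10A and 0.00 in DCIS.COM, next to those of all genes.

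Of 19 genes of IL-1 processing and release, 15 had a row. In MCF10A 3 rose: *GSDME*, a gasdermin that forms membrane pores after cleavage, from 2.66 and 2.52 CPM to 7.30 and 6.54 CPM (log2 fold change 1.39 ± 0.12, adjusted p = 9.31e-07), and the inflammasome sensors *NLRP1* and *NLRP3*, both below 2 CPM in all libraries and named after their values were seen. With 1 CPM added, 1 DEG was left in this list. By limma-voom 3 rose and 0 fell, and 7 were higher and 4 lower at an unadjusted p below 0.05. Of all genes in MCF10A, 2.99% rose and 2.51% fell by limma. At the unadjusted level 30.6% of all genes were higher and 27.9% lower. In DCIS.COM 1 fell, *PYCARD*, the ASC adaptor that links inflammasome sensors to caspase-1, which had 110 and 104 reads (5.13 and 4.96 CPM) with pLOC-empty and 1 and 1 read with pLOC-*MALINC1*. In MCF10A *PYCARD* had at most 2 reads in a library. Of all genes in DCIS.COM 3.08% fell by limma, and 1 gene of 15 is too few to set apart from that share. At an unadjusted p below 0.05, 6 genes of the list were higher and 6 lower in DCIS.COM, against 27.1% and 25.7% of all genes. The list's medians were 0.13 in MCF10A and -0.15 in DCIS.COM.

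Of 35 genes that IL-1 is known to induce in epithelial cells, among them chemokines and acute-phase proteins, 28 had a row. As this list too was chosen with earlier results known, its counts describe these genes and are no independent test. In MCF10A 5 rose and 0 fell by limma and by limma-voom, with 15 higher and 5 lower at an unadjusted p below 0.05. Over all genes, 2.99% rose and 2.51% fell by limma, 2.90% and 2.54% by limma-voom, and 30.6% and 27.9% were higher and lower at the unadjusted level. The chemokine genes *CXCL8* (2.66 and 2.61 to 9.33 and 9.56 CPM), *CXCL1* (11.7 and 12.3 to 37.7 and 37.1 CPM) and *CXCL5* (10.6 and 10.8 to 27.9 and 27.5 CPM) and the cytokine gene *LIF* (3.52 and 3.99 to 13.5 and 12.9 CPM) were 2.58-fold to 3.52-fold higher. In DCIS.COM 11 fell and 0 rose by limma, and 12 fell and 0 rose by limma-voom, with 2 higher and 21 lower at an unadjusted p below 0.05. The shares of all genes that fell and rose there were 3.08% and 1.44% by limma and 3.11% and 1.47% by limma-voom, and 25.7% were lower and 27.1% higher at the unadjusted level. The largest decreases there among genes over 5 CPM were in *PTX3*, a pentraxin (227 and 210 reads against 2 and 0), in the acute-phase genes *SAA1* (354 and 307 reads against 4 and 7) and *SAA2* (231 and 218 against 3 and 6), and in *LCN2*, an iron-scavenging lipocalin (294 and 282 CPM against 32.5 and 30.2 CPM, 9.18-fold). *SAA1* and *SAA2* are near-identical and reads may have been split between them.

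The 28 induced genes had a median log2 fold change of 0.31 in MCF10A and of -0.86 in DCIS.COM, against values close to 0 over all genes. Within the list the lines did not share their genes in a simple way. *CXCL8* and *CXCL1*, which rose in MCF10A, were abundant in DCIS.COM with either vector, at 132 and 109 against 134 and 124 CPM for *CXCL8* and 271 and 236 against 294 and 285 CPM for *CXCL1*, and *CXCL5* had 0 reads in all DCIS.COM libraries. *LIF*, which also rose in MCF10A, was lower in DCIS.COM with pLOC-*MALINC1*, at 144 and 77.7 CPM, short of a DEG (log2 fold change -0.89 ± 0.08). *PTX3* was a DEG in both lines, as it rose in MCF10A from 5 and 3 reads to 25 and 24 reads. In MCF10A *LCN2* was 1.93-fold lower, and *SAA1* and *SAA2* were 1.36-fold and 1.54-fold higher, all short of a DEG. The genes of the list also respond to other cytokines, and the part of IL-1 in their levels was not tested.

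**Figure D5:**
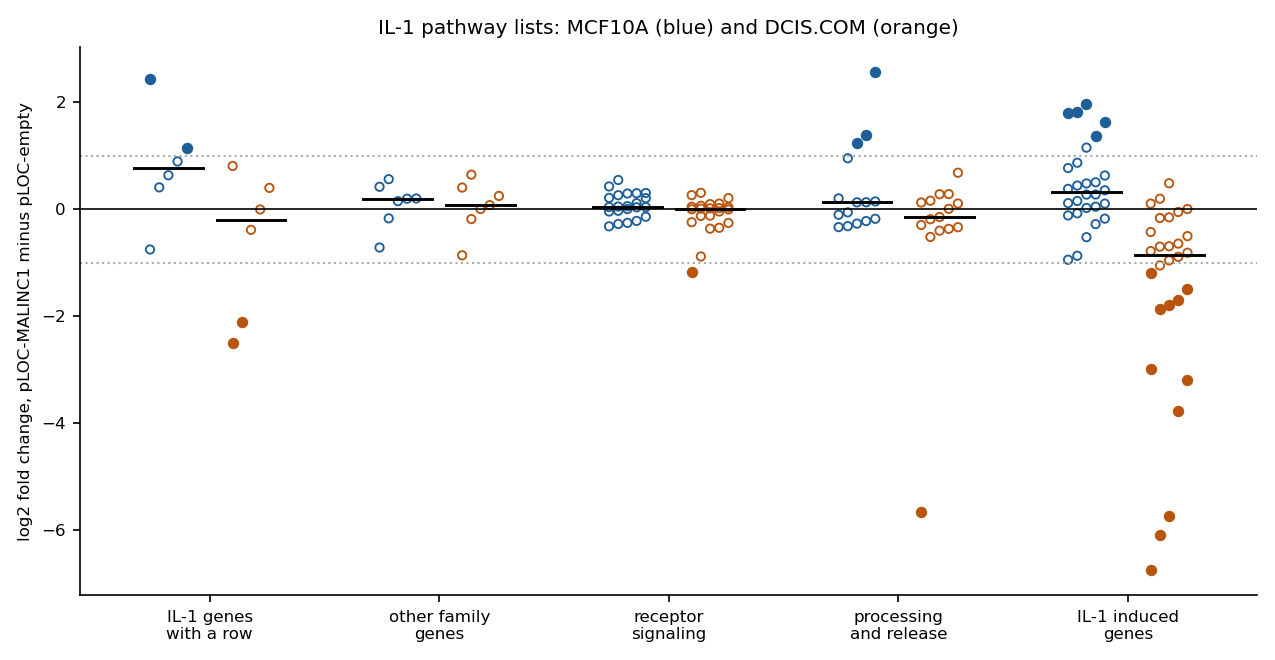
Log2 fold change of pLOC-*MALINC1* over pLOC-empty for each gene of 5 IL-1 lists in MCF10A (blue) and DCIS.COM (orange), with filled points for DEGs, bars at the list medians and dotted lines at 2-fold. The median of the induced genes lies at 0.31 in MCF10A and -0.86 in DCIS.COM, and the lowest points, *PTX3*, *SAA1*, *SAA2* and *PYCARD*, have 0 to 7 reads in DCIS.COM with pLOC-*MALINC1*, so that their fitted values depend on the prior count.

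The genes with the most similar pattern were listed for the 3 members with the highest mean CPM, by Pearson correlation of log2 CPM over the 8 libraries among 11369 genes. For *IL1RAP* these were *CHPF* (r = 0.999), *DGKE* (0.999) and *DOK7* (0.998), which rose from MCF10A to DCIS.COM in mean CPM. For *IL1RN* they were *IVL*, which encodes involucrin of the cornified envelope (r = 0.999), *MPZL2* (0.999) and *PLP2* (0.999). *IVL* had 90.3 and 156 CPM in MCF10A and 4.51 and 7.65 CPM in DCIS.COM with pLOC-empty and pLOC-*MALINC1*. For *IL1A* they were *PDGFB*, a growth factor gene (r = 0.996), *CD70* (0.990) and *NCK1* (0.988). *PDGFB* had 5.55, 6.96, 9.46 and 2.63 CPM in MCF10A with pLOC-empty, MCF10A with pLOC-*MALINC1*, DCIS.COM with pLOC-empty and DCIS.COM with pLOC-*MALINC1*. The points share libraries and depth and come from 4 groups only, so that r is a description of the group pattern.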

How the data were processed

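RNA-seq of 8 libraries of MCF10A and DCIS.COM cells (2 libraries in each of 4 groups, taken from the labels) was used. The authors made the libraries with a ScriptSeq v2 kit, sequenced them as paired-end reads, aligned them to hg19 with Rsubread, counted reads on UCSC gene models by featureCounts, and deposited edgeR's normalized log2 CPM of 13842 genes. Tool versions, strandedness and the low-expression filter are not given in the sources used here. The deposited log2 values carry a library-scaled prior count of 2. Removing it gave whole reads (within 0.05) for 100% of values, and CPM without the prior are printed. Replicates differed beyond counting noise, so that none was counted once. Chi-square per degree of freedom was 20.4 in DCIS.COM with pLOC-*MALINC1* and 3.27 to 6.27 in the other groups. The Pearson correlation of log2 CPM between replicates was 0.9969 in that group and 0.9959 to 0.9967 in the others. The fit below shares the spread of a gene over all groups.

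Models were fitted to these log2 CPM by limma 3.58.1 (R 4.3.3, lmFit, eBayes with a trend, 4 group means, Benjamini-Hochberg adjustment over all genes), with a contrast within each line, within each vector and for the difference between lines. The steps were tested on simulated data. Python 3.11.15 with scipy 1.17.1, pandas 2.3.3, matplotlib 3.10.9 and numpy 2.4.6 gave the ratios and plots. Gene positions come from GENCODE on GRCh37, and promoter windows from RefSeq on GRCh38.p14, where all 9 genes had an entry. Replicate numbers did not pair the libraries (correlation of same-numbered deviations -0.0666 in MCF10A and 0.0354 in DCIS.COM).

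The members, gene lists and ratios were chosen with earlier results of these data known. Named were all members, *MALINC1*, and from each pathway list up to 4 DEGs of a vector comparison reaching 5 CPM in its higher group, by size of change. Alternatives changed the pseudocount, the scaling, the filter, the model and the threshold, added the replicate number as a block, and left out each library in turn.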

Additional observations from a re-analysis of the deposited data

Results flagged for a closer look

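The vector effect differed between the lines, by limma's test of the difference itself, for 5 genes, so that these genes met the criterion for a closer look. The effect in DCIS.COM minus that in MCF10A was -2.52 for *IL1A*, -3.40 for *IL1B*, -2.82 for *IL1R2* and -1.15 for *IL1RAP* on the log2 scale, and 1.15 for *IL1R1*. For *IL1A* and *IL1B* the fitted vector effect was negative in DCIS.COM and positive in MCF10A. The changes in MCF10A, 1.32-fold and 1.85-fold, were no DEGs. For *IL1R2* and *IL1RAP* the effect was seen in MCF10A, and the values in DCIS.COM did not pass the test there. The difference in *IL1R1* was no longer called without any 1 of 3 libraries (1.09, 0.87 and 1.01). Groups of 2 libraries are too small to test for single libraries that stand apart.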

How the results depend on the processing

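The number of DEGs among the 6 genes in MCF10A was 6 in place of 2 at an adjusted p below 0.05 with any fold change. The other alternatives left the counts of members within 1.5 times, and with the replicate block they were 2 and 2 for the vector in MCF10A and DCIS.COM and 5 for each of the 3 other comparisons. Replicate numbers are shared names only, and the block changed no call of a member. Without the DCIS.COM pLOC-*MALINC1* replicate 1, or with quantile normalization, the log2 fold change of *IL1RAP* in DCIS.COM turned from -0.0073 to 0.0274 and 0.0198, none of them past the test, and with a library left out it lay between -0.0419 and 0.0274. Of the member values under alternatives, 478 kept their direction and their side of the threshold, 5 passed it newly, 7 lost it, and the 2 of *IL1RAP* changed sign without passing it. Over all genes, DEGs in MCF10A and DCIS.COM numbered 416 and 368 with 1 CPM added, against 761 and 627. At an adjusted p below 0.05 with any fold change they numbered 7338 and 6387, with 6887 for the difference between lines and 11236 and 11131 between lines within each vector. The cause of these shifts was not tested, apart from the looser threshold itself. Depth limits *IL1R2* in DCIS.COM, with 8 to 12 reads per library, and *IL1B* in MCF10A with pLOC-empty, with 31 and 44 reads.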
